A study of Mus musculus with 6 samples.

Results

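Interferon-stimulated genes are the genes that cells switch on when interferon reaches them. A set of 41 such genes, chosen by name, was followed in the cortex of young and old adult mice, out of 55421 genes measured. All 41 had 1 row each in the deposited tables and all passed the minimum of 10 counts over the libraries. RNA-seq was performed on the cerebral cortex of wild-type (WT) C57BL/6J males, 3 of 6 months of age (mice 10, 11 and 17) and 3 of 24 months of age (mice 2, 4 and 5), all anesthetized with isoflurane before tissue collection. Whole cortex was powdered, so fewer cells of a type and less RNA per cell cannot be told apart. The question is whether these genes were expressed differently at the 2 ages, gene by gene, as a group and mouse by mouse.

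Type I interferons are secreted proteins that viruses and misplaced nucleic acids induce in most cells. They bind the receptor pair Ifnar1 and Ifnar2, the attached kinases Jak1 and Tyk2 phosphorylate transcription factors such as Stat2, and these join Irf9 in a complex that binds the interferon-stimulated response element (ISRE) in the promoters of its targets. The proteins made from these targets block steps of viral replication, sense viral RNA or DNA, or regulate the response itself. In brain, microglia, endothelial cells, astrocytes and neurons can all carry out this response.

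The element is visible in the DNA upstream of several members. The stretches below were taken from RefSeq promoters (mouse assembly GRCm38.p6) and are written 5′ to 3′ along the strand of the gene, with each match to the core of the element (GAAA, any 2 bases and GAAA again, on either strand) in capitals. Isg15 is shown as the gene for the ubiquitin-like modifier that gave the group its name, Ifit1 and Ifit3 as neighbouring genes of 1 family, and Rsad2 beside its neighbour Cmpk2, whose fitted change was of the opposite sign (given with the effectors). Isg15 lies at chr4:156200850-156200921 (minus strand), Ifit1 at chr19:34640760-34640838 (plus), Ifit3 at chr19:34583348-34583441 (plus), Rsad2 at chr12:26456538-26456597 (minus) and Cmpk2 at chr12:26469115-26469214 (plus).
Isg15: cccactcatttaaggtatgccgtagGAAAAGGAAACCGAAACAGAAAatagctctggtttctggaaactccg
Ifit1: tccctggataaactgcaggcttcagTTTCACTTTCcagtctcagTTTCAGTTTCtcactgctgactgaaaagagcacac
Ifit3: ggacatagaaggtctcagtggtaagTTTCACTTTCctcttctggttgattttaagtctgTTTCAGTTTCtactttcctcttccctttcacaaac
Rsad2: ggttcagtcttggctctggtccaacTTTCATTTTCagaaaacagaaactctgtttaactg
Cmpk2: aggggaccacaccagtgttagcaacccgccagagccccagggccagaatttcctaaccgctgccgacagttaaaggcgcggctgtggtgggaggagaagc

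In Isg15 the capitals hold 3 overlapping matches that begin 78, 72 and 66 bases before the start site. Upstream of Ifit3b, at chr19:34607744-34607837, all 94 of 94 bases were identical to the Ifit3 stretch. The Cmpk2 stretch, which is the last 100 bases before its start site, had no match. Promoter windows of 250 bases before to 50 bases after the start site were at hand for 29 of the 41 members, and 18 of these genes (62.1%) had at least 1 match, against 3.99% of 27025 genes with a window. A second motif, the interferon-gamma activated site (TTC, any 3 bases and GAA), was found in 10 of the 29 (34.5%) against 9.55% of all genes. A match is a run of letters and was not tested for binding.

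Totals were 29495379 to 36494240 counts per library. Counts were scaled by TMM factors (0.921 to 0.946 at 6 months and 1.04 to 1.10 at 24 months) and are given as CPM (relative to the scaled library size), and a gene was called at a false discovery rate (FDR) of 10% in the quasi-likelihood test of edgeR, with Benjamini-Hochberg adjustment over the 32905 genes tested, because 0 of them passed the 1% FDR that the study applied. A positive log2 fold change means a higher level at 24 months. Levels of different genes are compared in TPM, the deposited values corrected for gene length. Scaling moves small changes: all genes tested had a median change of 0.15 and the 15761 genes of at least 1 mean CPM one of -0.14, but scaling by library totals alone gave 0.33 and 0.05. Sensory receptor genes, taken here as a measure of background because most have no known role in cortex, also had more counts at 24 months. Whether they are free of expression in this tissue was not tested. Over 1831 sensory receptor genes, the density was computed per exonic kb in CPM of the library totals, without TMM factors. It was 0.0203, 0.0226 and 0.0233 at 6 months against 0.0938, 0.0768 and 0.0550 at 24 months (mice 2, 4 and 5). The ratio was 3.41 (two-sided exact permutation test, p = 0.1, which is the lower limit for 3 mice per age). From this density and the exonic length of each member an expected background count was computed. It is given beside several of the members. Summed over the members in TMM-scaled CPM, this background had a ratio of 2.97.

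Of the 41 interferon-stimulated genes, 3 rose (Ifit3b, Oasl1 and Parp14) and 1 fell (Cmpk2) between 6 and 24 months at 10% FDR, while the other 37 were not called. Over all genes tested, 10% were called higher and 8.33% were called lower, so the members called higher (3 of 41) were no larger a share than in the table as a whole. At an unadjusted p under 0.05 there were 7 members higher (Ifit3b, Irf7, Oas1b, Oasl1, Zbp1, Rtp4 and Parp14) and 1 lower, against 17.6% and 13.1% of all genes. In CPM, all 24-month mice were above all 6-month mice in 8 members and below them in 2, against 20% and 16.2% of all genes. The fitted change was above 0 in 36 members and below 0 in 5 (Ifit2, Stat2, Eif2ak2, Cmpk2 and Gbp7), and 58.4% of all genes were fitted higher. The median log2 fold change of the members was 0.25, beside 0.15 over all genes tested. With 1 mouse left out, the number of calls changed for the whole table and not only for the members. Without mouse 10 and without mouse 4, 0 genes of the table were called, without mouse 11 there was 1 and without mouse 2 there were 176, none of them a member. Without mouse 17, 2476 genes were called, among them 2 members higher (Oas1b and Rsad2) and 1 lower (Cmpk2), and without mouse 5, 7997 genes, with 6 members higher and 1 lower. With all mice 6041 genes were called.

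For the more abundant genes, the direction of the table as a whole depended on scaling and filter. Of the 31 members with at least 1 mean CPM, 26 were fitted higher at 24 months, where 30% of all genes of at least 1 mean CPM were. The median log2 fold change of these members was 0.19, against -0.14 for all genes of that level. With library totals these medians were 0.38 and 0.05, and 28 of the 31 members and 58.3% of all genes of that level were fitted higher. Under TMM scaling of only the genes with 1 CPM or more in 3 libraries they were 0.34 and 0.01, with 51.7% of all genes of that level fitted higher. In these same 31 members, 2 rose and 1 fell, beside 2.43% and 17.3% of all genes of that level called in each direction. The 24-month mice all lay above the 6-month mice in 4 of the 31 and all below in 2, against 5.32% and 32.5% of genes of that level. The remaining 10 members, all under 1 mean CPM, were all fitted higher, with a median of 0.65. Over all genes tested, 58.4% (19232 of 32905) were fitted higher. That share was larger among the tested genes under 1 mean CPM, since it was 30% (4722 of 15761) among those of at least that level. Most genes at the level of these 10 members were thus fitted higher too. In these 10, the expected background was between 6.95% (Ifi27l2a) and 98.9% (Mx1) of the mean count at 24 months.

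**Figure D1:**
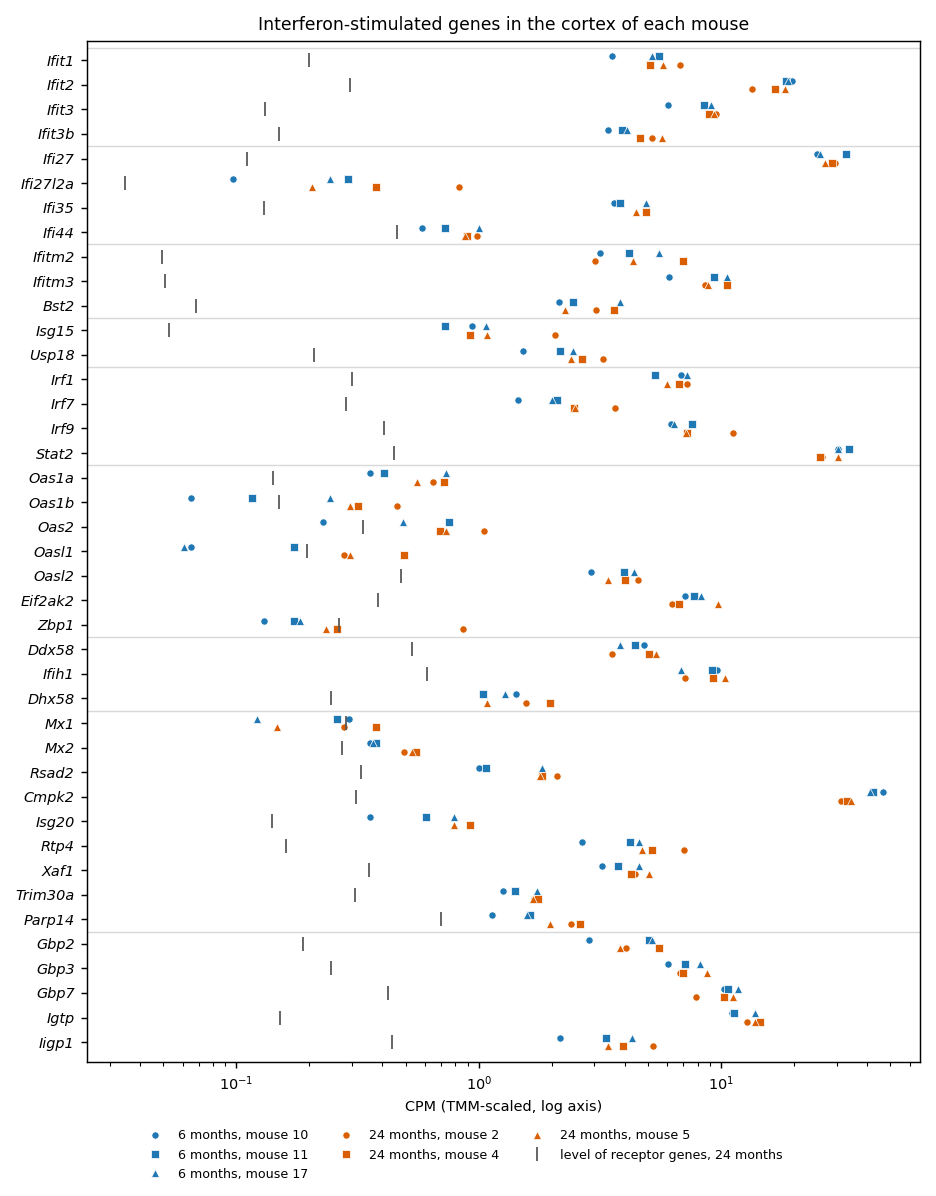
Level of each of the 41 interferon-stimulated genes in each mouse, in TMM-scaled CPM on a log axis, with 1 point per mouse (blue, 6 months and orange, 24 months) and a vertical tick at the level that receptor genes of the same exonic length had at 24 months. The tick is in CPM of the library totals, without TMM factors. Points of the 2 ages overlap in most genes, and Cmpk2 is the clearest exception among abundant genes. Mx1, Zbp1, Oasl1 and Oas1b lie close to the tick.

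**Figure D2:**
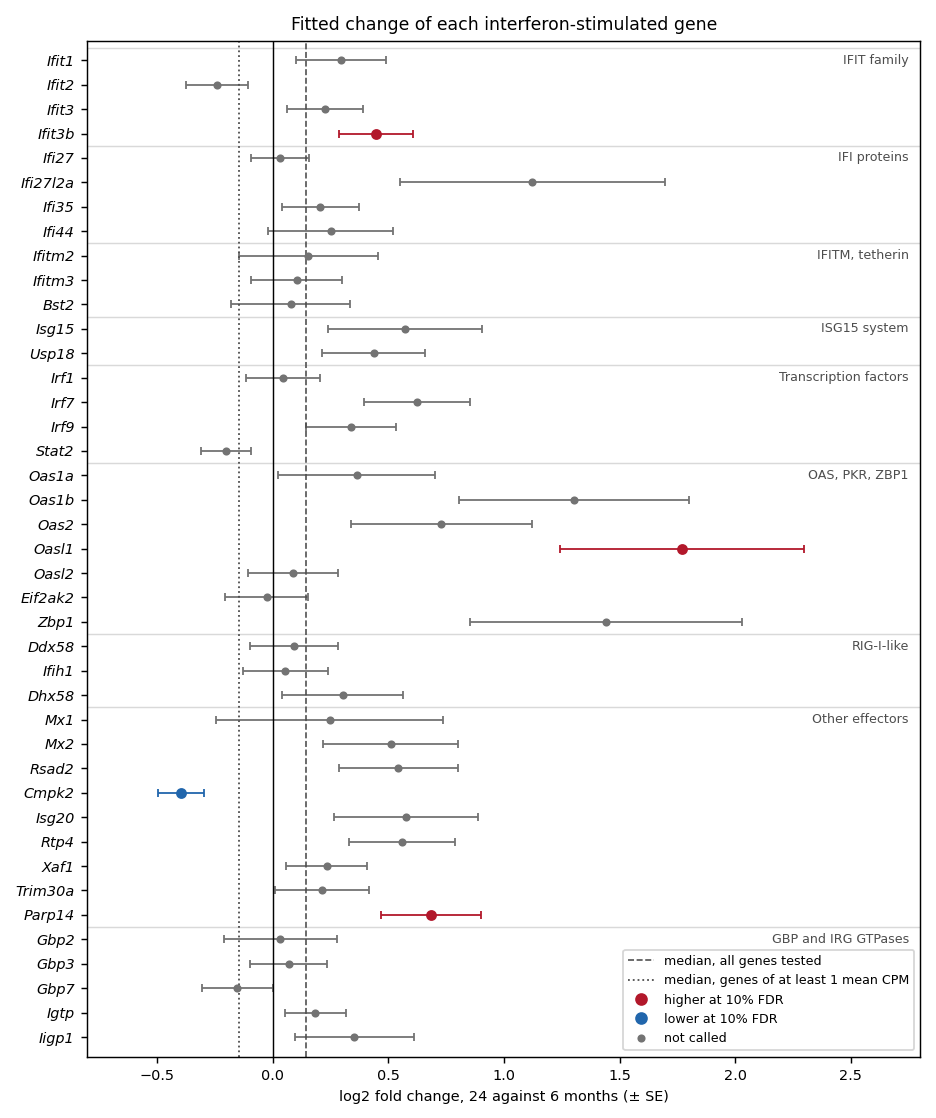
Fitted log2 fold change of each member (24 against 6 months) with its standard error from the edgeR fit (3 mice per age), in order of role, with red for the 3 genes higher and blue for the 1 lower at 10% FDR. The dashed line is the median of all genes tested (0.15) and the dotted line that of genes of at least 1 mean CPM (-0.14). Most members lie to the right of the dotted line.

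Levels among the members spanned a wide range. The mean TPM over the 6 mice went from 70.0 for Ifi27 down to 0.239 for Mx1, with a median of 3.92. Ifi27, Ifitm3, Cmpk2, Ifitm2 and Igtp together made up 53.5% of the summed TPM of the 41 genes. The members most often used as readouts of interferon signalling were not among them: Isg15 was at 5.96, Irf7 at 2.32, Rsad2 at 1.36 and Oas1a at 1.11 TPM.

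The Ifit genes, whose products bind foreign RNA and hold back its translation, lie side by side on chromosome 19 between positions 34550694 and 34650009 (GRCm38). Ifit3b (ENSMUSG00000062488.9, positions 34607970 to 34613401) was the member of this family that rose. Its counts were 105, 135 and 134 at 6 months (mice 10, 11 and 17, the order kept for all genes) against 169, 160 and 195 at 24 months (mice 2, 4 and 5). All 24-month mice were above all 6-month mice also after scaling, with 3.80 ± 0.356 against 5.19 ± 0.553 CPM (SD, n = 3 mice each). Its log2 fold change was 0.45 with a standard error of 0.16 (edgeR quasi-likelihood test, adjusted p = 0.0992). This call lay at the threshold, and in the fits with 1 mouse left out Ifit3b was called in 0 of 6, with log2 fold changes of 0.37 to 0.57 and adjusted p of 0.137 to 0.247. Ifit3b and Ifit3 also share sequence: 37.7% of the 69-base stretches of Ifit3b transcripts (the length of a trimmed read) and 43.5% of those of Ifit3 occur in the other gene, so the split of reads between them is uncertain.

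Ifit3 itself had 187, 294 and 299 counts at 6 months against 308, 308 and 319 at 24 months. The 24-month mice were close together, and the 6-month mouse 10 lay far below the others. In CPM the ages overlapped (7.90 ± 1.62 and 9.26 ± 0.312, log2 fold change 0.23 with a standard error of 0.16, edgeR adjusted p = 0.368). Ifit1, an RNA cap sensor, was fitted at 0.29 and Ifit2, which also binds RNA, at -0.24. For Ifit2 the 24-month mice lay below all 6-month mice in CPM without a call, although 24-month mouse 5, with 18.3 CPM, was next to the lowest 6-month mouse at 18.6. The family thus held fitted changes in both directions.

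Among the Ifi genes, Ifi27 was the most abundant member at both ages. It encodes a small membrane protein of mitochondria and the nuclear envelope. Its counts were 768, 1127 and 836 at 6 months against 957, 990 and 915 at 24 months. The ages overlapped fully, since mouse 11 was the highest and mouse 10 the lowest of all 6 in CPM, and the log2 fold change was 0.03 with a standard error of 0.13. In TPM, Ifi27 stood at 66.5 ± 10.7 and 73.5 ± 3.48 (SD, n = 3 each). Its neighbour Ifi27l2a, a related gene at positions 103442167 to 103443680 of chromosome 12, had 3, 10 and 8 counts at 6 months against 27, 13 and 7 at 24 months. Mouse 2 was well above the others, mouse 5 was within the 6-month range, and the fitted log2 fold change of 1.12 (standard error 0.57, edgeR adjusted p = 0.209) was 0.45 without mouse 2. Ifi35 and Ifi44 were fitted at 0.21 and 0.25 with overlapping ages. For Ifi44 the expected background was 46.5% of the mean count at 24 months. Its mean count rose by 5.67 between the ages and its expected background by 9.69 counts.

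The interferon-induced transmembrane proteins Ifitm2 and Ifitm3 keep viruses from fusing with the cell, and Bst2 (tetherin) holds budding viruses at the cell surface. Ifitm3 had 189, 324 and 346 counts at 6 months against 280, 365 and 302 at 24 months. Mouse 10 was again the lowest and the other mice of both ages were mixed, with a log2 fold change of 0.10 (standard error 0.20). Ifitm2 had 98, 144 and 182 counts at 6 months against 98, 242 and 148 at 24 months. Here a 24-month mouse, mouse 2, was the lowest in CPM (3.02) and another, mouse 4, the highest (6.99), and the log2 fold change was 0.15 with a standard error of 0.30. Reads of Ifitm2 are uncertain, as 43.6% of its 69-base stretches occur in other genes, most of them in Gm45717. Bst2 was fitted at 0.08. The ages overlapped in all 3 genes.

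In the Isg15 system, Isg15 is joined to other proteins and Usp18 both removes it and restrains the receptor. Isg15 had 29, 25 and 35 counts at 6 months against 67, 32 and 37 at 24 months. Mouse 2 stood alone, and mice 4 and 5 were within or next to the 6-month range in CPM. Its log2 fold change of 0.57 (standard error 0.33, edgeR adjusted p = 0.262) was 0.15 without mouse 2, so the fitted value rests on that library. Usp18 was fitted at 0.44 with overlapping ages and an adjusted p of 0.205 in the edgeR test. The values of Isg15 were singled out after they were seen.

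None of the 4 transcription factors among the members was called. Stat2, a subunit of the complex that binds the ISRE, had 935, 1165 and 996 counts at 6 months against 851, 887 and 1032 at 24 months. In CPM the 24-month mouse 5 (30.33) just exceeded the 6-month mouse 10 (30.32), and the log2 fold change was -0.20 with a standard error of 0.11 (edgeR adjusted p = 0.236). Its DNA-binding partner Irf9 was fitted at 0.34, with 363 counts in mouse 2 against 191 to 261 in the other 5 mice, and at 0.10 without mouse 2. Irf7, which drives further interferon production, had 45, 73 and 66 counts at 6 months against 119, 86 and 85 at 24 months. All 24-month mice were above all 6-month mice in Irf7, with a log2 fold change of 0.62 (standard error 0.23) that missed the threshold (edgeR adjusted p = 0.107). Irf1, which acts early in the response to interferon gamma, was fitted at 0.04.

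Oligoadenylate synthetases of the Oas family sense double-stranded RNA. Oasl1, a member of this family that lacks the enzyme activity and restrains Irf7, rose. The gene (ENSMUSG00000041827.15) lies at 114923240 to 114937915 of chromosome 5. It had 2, 6 and 2 counts at 6 months against 9, 17 and 10 at 24 months. Every 24-month mouse was above every 6-month mouse, with 0.0999 ± 0.0640 against 0.354 ± 0.119 CPM (SD, n = 3 each). The log2 fold change was 1.77 with a standard error of 0.53 (edgeR quasi-likelihood test, adjusted p = 0.0704). At this level the receptor-gene density alone gives 6.13 counts per 24-month library, 51.1% of its mean count at 24 months, and 2.01 counts per 6-month library, 60.4% of its mean at that age. After the expected counts were subtracted the log2 fold change of Oasl1 was 2.17 and not called, in a fit that called 28 of 25501 genes, and of the fits with 1 mouse left out it was called in 1 (without mouse 5).

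Oas1b, which protects against flaviviruses but is truncated in common laboratory strains, had 2, 4 and 8 counts at 6 months against 15, 11 and 10 at 24 months. The ages did not overlap, but the counts were few and 39.0% of the 24-month mean was the expected background. Its log2 fold change was 1.30 with a standard error of 0.50 (edgeR adjusted p = 0.117). Oas1a, Oas2 and Oasl2 were fitted at 0.36, 0.73 and 0.09, all with overlapping ages. The expected background was 20.5%, 37.8% and 11.2% of their mean counts at 24 months. Oas1a shared 49.5% of its 69-base stretches with Oas1g, so its counts are uncertain.

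Zbp1, a sensor of left-handed nucleic acid that can start necroptosis, had 4, 6 and 6 counts at 6 months against 28, 9 and 8 at 24 months. The 24-month mice were above the 6-month mice, yet mice 4 and 5 by only 2 to 5 counts. The log2 fold change was 1.44 with a standard error of 0.59 (edgeR adjusted p = 0.134), and 0.60 without mouse 2. The expected background was 8.30 counts per 24-month library, 55.3% of the mean count. Eif2ak2, the kinase PKR that stops translation when it meets double-stranded RNA, was fitted at -0.02.

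The cytosolic RNA helicases Ddx58 (RIG-I), Ifih1 (MDA5) and Dhx58 (LGP2) detect viral RNA and signal toward interferon production. None was called. They were fitted at 0.09, 0.06 and 0.30, and the ages overlapped in each. Ddx58 had 115 to 183 counts per library, Ifih1 225 to 352 and Dhx58 36 to 68.

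Among the remaining effectors, Cmpk2 fell and Parp14 rose. Cmpk2 encodes a mitochondrial nucleotide kinase and was the third most abundant member. It had 1431, 1459 and 1347 counts at 6 months against 1011, 1145 and 1175 at 24 months. All 24-month mice were below all 6-month mice, with 43.3 ± 2.78 against 32.9 ± 1.69 CPM (SD, n = 3 each). The log2 fold change was -0.39 with a standard error of 0.10 (edgeR quasi-likelihood test, adjusted p = 0.0575), the smallest adjusted p of the 41. The gene (ENSMUSG00000020638.8) lies at 26469204 to 26479837 of chromosome 12, and its start site is 12752 bases from that of Rsad2, which is transcribed in the opposite direction. Background counts are negligible for Cmpk2, 0.882% of its 24-month mean. Scaling matters more: with library totals the log2 fold change was -0.20 and not called, and with 1 mouse left out it was -0.43 to -0.34 and was called in 2 of 6 (without mouse 17 and without mouse 5).

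The neighbour Rsad2, which encodes the antiviral enzyme viperin and is commonly induced together with Cmpk2, had 31, 37 and 60 counts at 6 months against 68, 63 and 61 at 24 months. In CPM mouse 17 (1.83) was within the 24-month range of 1.79 to 2.10, while mice 10 and 11 were below it. The log2 fold change of Rsad2 was 0.54 with a standard error of 0.26 (edgeR adjusted p = 0.182), so this pair of neighbours had fitted changes of opposite sign, without a test of the difference between them. Of the printed stretches, the one of Rsad2 holds a match to the ISRE letters and that of Cmpk2 none.

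Parp14, an ADP-ribosyltransferase of the antiviral response (ENSMUSG00000034422.14) at 35832874 to 35871544 of chromosome 16, had 35, 56 and 52 counts at 6 months against 78, 91 and 67 at 24 months. The ages did not overlap, with 1.45 ± 0.272 against 2.33 ± 0.336 CPM (SD, n = 3 each). The log2 fold change was 0.68 with a standard error of 0.22 (edgeR quasi-likelihood test, adjusted p = 0.0799). The transcript is long, and receptor-gene density gives 21.9 counts per 24-month library, 27.8% of its mean. After subtraction the log2 fold change of Parp14 was 0.60 and not called in the same fit, and with 1 mouse left out Parp14 was called in 1 fit of 6 (without mouse 5).

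Rtp4, Mx2 and Isg20 were fitted at 0.56, 0.51 and 0.58 and were not called. Rtp4, a chaperone of receptor transport that also restrains interferon signalling, had 82, 145 and 150 counts at 6 months against 228, 179 and 160 at 24 months. The ages did not overlap in Rtp4 or Mx2 and did in Isg20, an exonuclease of single-stranded RNA. For Mx2 the expected background was 48.1% of the mean count at 24 months. Its mean count rose by 5.67 between the ages and its expected background by 5.71 counts. Mx1, a dynamin-like GTPase whose allele in C57BL/6 mice does not make a working protein, had 4 to 13 counts per library, and the expected background was 98.9% of its mean count at 24 months. Xaf1 and Trim30a were fitted at 0.23 and 0.21 with overlapping ages.

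The GTPases that interferon gamma induces, the guanylate-binding proteins Gbp2, Gbp3 and Gbp7 and the immunity-related GTPases Igtp and Iigp1, attack the membranes around intracellular microbes. None was called. Igtp, the most abundant, had 343, 390 and 454 counts at 6 months against 417, 503 and 472 at 24 months. In CPM mouse 17 (13.86) was among the 24-month mice (12.9 to 14.5), and the log2 fold change was 0.19 with a standard error of 0.13 (edgeR adjusted p = 0.354). The Gbp genes were fitted at 0.03, 0.07 and -0.15 and Iigp1 at 0.35.

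Mouse by mouse, the 41 genes did not separate the ages when summed in TMM-scaled CPM. The summed level was 236.4, 262.9 and 264.9 CPM in mice 10, 11 and 17 (6 months) against 253.0, 258.2 and 260.9 in mice 2, 4 and 5 (24 months). The 24-month mice all lay between mouse 10 and mouse 11, and the ratio of the means was 1.01. The sum is dominated by a few abundant genes, and without the 3 members of the highest level the ratio was 1.07. In summed TPM, which is not corrected for composition by TMM, the ages did not overlap, with 303.0, 367.5 and 380.5 at 6 months and 395.8, 418.5 and 389.3 at 24 months, a ratio of 1.15. With library totals in the place of TMM scaling the summed CPM did not overlap either, at 217.7, 248.7 and 249.2 against 278.3, 276.2 and 270.6, a ratio of 1.15. With the expected background subtracted the TMM-scaled ratio was 0.983.

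A median over the members gives each gene the same weight. The median log2 difference from the 6-month mean (2 counts added at the mean library size) was -0.24, 0.04 and 0.20 in mice 10, 11 and 17 and 0.30, 0.28 and 0.21 in mice 2, 4 and 5. The 24-month mice were thus above the 6-month mice, but mouse 17 (0.20) nearly reached mouse 5 (0.21). Over genes of at least 1 mean CPM the same medians were between 0.00 and 0.01 at 6 months and -0.18, -0.14 and -0.10 at 24 months. Over all genes tested they were -0.01, 0.01 and 0.01 at 6 months and 0.15, 0.12 and 0.09 at 24 months.

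Mouse 10 was the lowest of the 6 mice in 28 of the 41 members. Over all genes tested it was the lowest in 25.4%, and over genes of at least 1 mean CPM in 15.7%. Without mouse 10, the median log2 fold change of the members was 0.13 rather than 0.25, 29 rather than 36 members were fitted higher, and 0 members were called. At 24 months mouse 2 was the highest of the 6 in 16 members, mouse 4 in 10 and mouse 5 in 6. Mouse 2 was the highest in 27.7% of all genes tested.

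**Figure D3:**
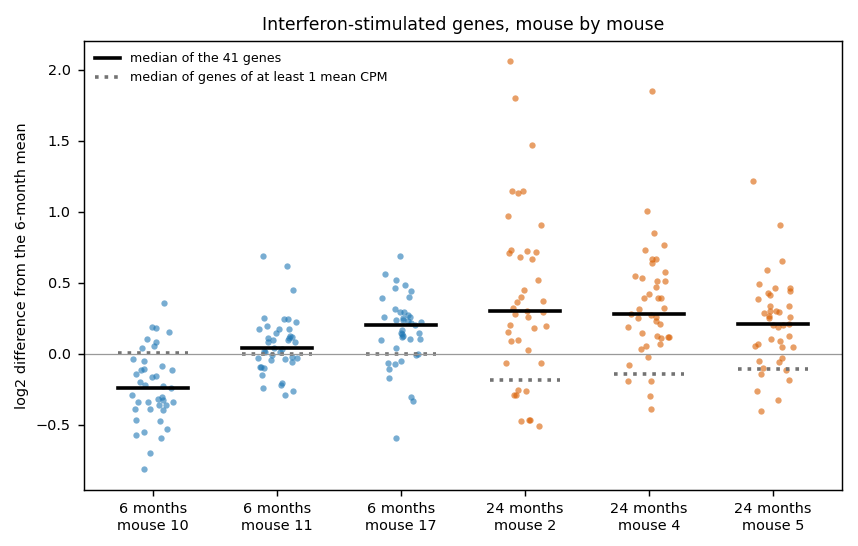
Log2 difference of each member from its 6-month mean (CPM, 2 counts added), with 1 point per gene and 1 column per mouse. Solid bars are the median of the 41 genes, from -0.24 in mouse 10 to 0.30 in mouse 2, and dotted bars the median of genes of at least 1 mean CPM.

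The rest of the pathway was examined through 84 other genes from interferons to further targets, of which 73 were tested. Of these, 7 rose and 6 fell, beside the 10% and 8.33% of all genes. The interferons themselves were hardly seen: the 10 ligand genes listed had 0 to 4 counts in every library and were not tested. Trex1, a nuclease that clears cytosolic DNA, was listed at 0 in all 6 libraries.

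Of the 6 receptor genes, 1 was called, lower, beside 17.3% of all genes of at least 1 mean CPM called lower. It was Ifngr2, a subunit of the interferon gamma receptor, with 2782, 2843 and 2631 counts at 6 months against 2260, 2412 and 2251 at 24 months (log2 fold change -0.30, standard error 0.09, edgeR adjusted p = 0.0727). Ifnar1 had 1904, 2221 and 2078 counts at 6 months against 1605, 1889 and 1989 at 24 months. All 24-month mice were below all 6-month mice in CPM, but the log2 fold change of -0.22 (standard error 0.10) was not called (edgeR adjusted p = 0.152). Its partner Ifnar2 was fitted at -0.07 (standard error 0.11).

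Downstream of the receptors, Jak1, the kinase shared by all interferon receptors, fell, with 10260, 10829 and 9674 counts at 6 months against 6655, 7520 and 8898 at 24 months. The ages did not overlap (log2 fold change -0.46, standard error 0.11, edgeR adjusted p = 0.0552). None of the other kinase and Irf genes of this list was called.

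The genes that restrain the response included 3 of 8 tested that fell and 0 that rose. All 8 were above 1 mean CPM, where 17.3% of genes were called lower and 2.43% higher. Ptpn2, a phosphatase that acts on Jak1, had 1015, 1025 and 943 counts at 6 months against 609, 739 and 822 at 24 months, and did not overlap between the ages (log2 fold change -0.51, standard error 0.12, edgeR adjusted p = 0.0552). Adar, which edits the cell's own double-stranded RNA so that it is not sensed, had 2057, 2842 and 2350 against 1843, 1825 and 2025 (log2 fold change -0.39, standard error 0.11, edgeR adjusted p = 0.0628). The 24-month mice were below the 6-month mice in both. Jak1, Ptpn2 and Adar were each called in 5 or 6 of the 9 other fits to all mice. None of them was called under library totals, where 0 pathway genes were called lower. The remaining pathway genes called lower were called less often. In these 9 fits Ifngr2 was called in 1, Pias1 (also a restrainer) in 3 and Pml (a further interferon-stimulated gene) in 0.

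Among sensors and adaptors, 1 of 11 rose, beside 10% of all genes tested. Cgas, which detects DNA in the cytosol, had 47, 57 and 55 counts at 6 months against 80, 80 and 87 at 24 months. All 24-month mice were above all 6-month mice by a clear margin (log2 fold change 0.59, standard error 0.18, edgeR adjusted p = 0.0705). The expected background was 11.8% of its 24-month mean.

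In a list of 40 further interferon-stimulated genes, 28 were fitted higher, 6 rose and 1 fell. Among all genes tested, 58.4% were fitted higher, 10% rose and 8.33% fell. The 40 genes had a median change of 0.24 (log2), against 0.25 in the 41 members and 0.15 in all genes tested. Ddx60, a helicase that assists RNA sensing, had 56, 60 and 71 counts at 6 months against 100, 102 and 102 at 24 months (log2 fold change 0.66, standard error 0.17, edgeR adjusted p = 0.0615). Helz2, a nuclear receptor coactivator, had 32, 47 and 47 against 90, 78 and 61 (log2 fold change 0.83, standard error 0.23, edgeR adjusted p = 0.0649). In both genes all 24-month mice were above all 6-month mice.

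Nlrc5, the transactivator of MHC class I genes, had 14, 13 and 24 counts at 6 months against 58, 39 and 28 at 24 months (log2 fold change 1.25, standard error 0.36, edgeR adjusted p = 0.0686). Trim21, an intracellular antibody receptor, had 5, 5 and 6 against 15, 12 and 14 (log2 fold change 1.30, standard error 0.38, edgeR adjusted p = 0.0675). The ages did not overlap in either gene. The expected background was 20.2% of the 24-month mean of Ddx60, 35.5% of that of Helz2, 47.9% of that of Nlrc5 and 63.9% of that of Trim21, and after its subtraction the log2 fold changes were 0.64 for Ddx60, 0.69 for Helz2, 1.21 for Nlrc5 and 1.16 for Trim21. None of them was called in that fit, with its 28 calls in all. Oas3 and Ifi213 also rose (log2 fold changes 1.55 and 1.66, edgeR adjusted p = 0.0795 and 0.0929). For these genes the expected background exceeded the 24-month mean, at 124.7% of it for Oas3 and 104.9% for Ifi213. The ages overlapped in Ifi213 and not in Oas3. The fits without mouse 10, mouse 11, mouse 2 or mouse 4, which called 0 to 176 genes of the table, called 0 pathway genes.

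**Figure D4:**
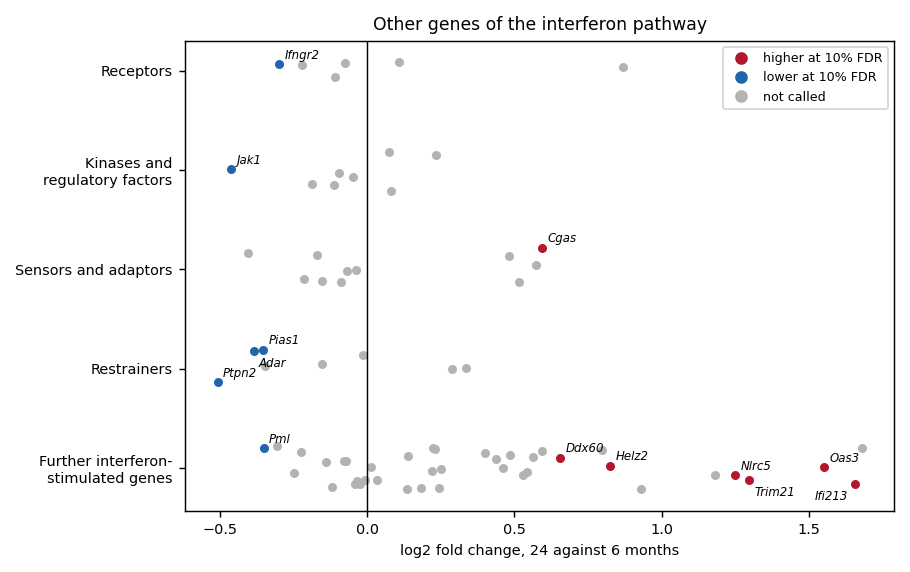
Fitted log2 fold change (24 against 6 months) of the 73 tested pathway genes outside the 41 members, 1 point per gene, by role, with the vertical spread only to part the points. Red points are the 7 called higher and blue points the 6 called lower at 10% FDR. Most of the red points lie among the further interferon-stimulated genes, and the blue points are a receptor, a kinase, 3 restrainers and Pml.

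Cell types that express these genes were followed by markers. Neuronal markers were 8 genes, among them Neurod6 of cortical projection neurons. They summed to 8228 to 9589 CPM at 6 months and 6093 to 7868 at 24 months. Of the 8 genes, 3 were called lower and all were fitted lower. All 8 were above 1 mean CPM, where 17.3% of genes were called lower and 30% were fitted higher under TMM scaling. The summed CPM of 14 microglial markers was 620.6 to 638.1 at 6 months and 606.5 to 652.9 at 24 months, with Tmem119 higher and Csf1r lower at 10% FDR. Endothelial markers (8 genes) ranged from 254.9 to 273.2 and from 163.4 to 308.4, with 0 called. Mouse 2, in which many members had their highest value, had the lowest endothelial and oligodendrocyte marker sums (163.4 and 1258 CPM, against 254.9 to 308.4 and 2367 to 4051 in the other mice). Its sums of neuronal, pericyte, border macrophage, meningeal and red cell markers were also the lowest. Those of microglial, T cell, B and plasma cell, and astrocyte markers were not. Over genes of at least 1 mean CPM, mouse 2 was the lowest of the 6 in 37.7%. Of 10 T cell markers 4 were called higher (Cd3g, Cd8a, Cd8b1 and Cd2), beside 10% of all genes tested. The 10 markers summed to 23.4 to 27.3 CPM at 6 months and 22.0 to 25.1 at 24 months. Most of this sum was Trbc2 (mean 19.4 CPM at 6 months and 16.5 at 24 months), which was fitted at -0.24. The other 9 markers were fitted higher. Of the 5 B and plasma cell markers tested 3 were called higher, with sums of 0.713 to 1.496 and 2.47 to 4.54 CPM. Of 7 astrocyte markers 1 was called (Gfap, higher), 3 were fitted higher and 4 lower, and their sums were 4688 to 5071 and 4902 to 5334 CPM. The part of these cell types in the values of the interferon-stimulated genes was not tested.

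The members were also divided by the ISRE letters in their promoters. The 18 members with a match had a median log2 fold change of 0.13 with 15 fitted higher, and 1 of them (Ifit3b) was called higher. The 11 members with a window and no match had a median of 0.23 with 9 fitted higher, and they include Oasl1 and Cmpk2. The 12 members without a window had a median of 0.54. These are counts over genes of unequal expression and were not tested.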

How the data were processed

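The authors prepared libraries from 10 ng of total RNA of each cortex with a low-input kit, checked and trimmed 75-base reads (FastQC 0.11.8, Trim Galore 0.6.4), mapped them to GRCm38 with STAR 2.7.3a and counted them on exons with featureCounts of Subread 2.0.0. They deposited 1 count and 1 TPM value for each of 55421 genes and mouse. The methods name fractional counting of reads with several positions and the annotation GENCODE vM23, but all deposited counts were whole numbers, so how reads of genes with shared sequence were counted is not known. The counts were tested as they are. The deposited TPM values, which the authors computed from counts and exonic lengths, were used for levels. Both tables were joined by row: counts over TPM gave 1 length per gene within 0.1% in all 45179 genes with counts in 2 or more libraries.

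The ages were compared by the quasi-likelihood test of edgeR 4.0.16 (R 4.3.3) with TMM scaling and no covariates, on all genes whose counts over the 6 libraries reached 10, with Benjamini-Hochberg adjustment across them. Alternatives were edgeR's likelihood ratio and exact tests, DESeq2 1.42.0 (Wald test), its size factors in edgeR, library totals, 3 other filters, subtraction of an expected background, and each mouse left out. The background was the pooled CPM per exonic kb of Olfr, Vmn1r, Vmn2r, Tas1r, Tas2r and Taar genes, relative to library totals without TMM factors. Nothing gives the animals' litters or batches, so effects of these cannot be told apart from age. The p-values set the difference between the ages against the spread between these mice, which edgeR estimates with information from all genes tested. The fit was also run on simulated counts in which a set of genes was changed equally in both directions. The simulated counts held no shift in background, so that run cannot show how far the calls here depend on scaling or background.

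The members, lists and 10% threshold were chosen with earlier results of these data known. By a fixed rule, called members, the 6 others of highest TPM and the 3 others of largest fitted change were given in full, with the 8 pathway genes of smallest adjusted p, Ifnar1 and Ifnar2. A further gene of this rule is not reported here. Values in full for Isg15, Irf7, Irf9, Rsad2 and Rtp4 were chosen after they were seen. Positions and 69-base stretches are from GENCODE vM21, in which all 41 members had the same symbol. Reads were counted without a stated strand, so overlapping genes cannot be told apart. Python 3.11.15 with pandas 2.3.3 and numpy 2.4.6 was used for sums and motif searches on both strands.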

Additional observations from a re-analysis of the deposited data

How the results depend on the processing

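Calls at 10% FDR depended on the fit. The 3 members called higher became 5 in the likelihood ratio test and with library totals, 4 in the exact test, and 0 with DESeq2, with 1 CPM in 3 libraries (31 members tested) or with the background subtracted, and 0 to 6 with 1 mouse left out. Over all genes 6041 were called, 3048 with DESeq2, 112 of 15932 with 1 CPM, 28 of 25501 after subtraction and 0 to 7997 with 1 mouse left out. The 1 member called lower became 0 with library totals, filterByExpr, 1 CPM in 3 libraries or the background subtracted, and was 0 to 1 with 1 mouse left out. For the other pathway genes, the 7 called higher became 3 with DESeq2, 15 with library totals and 0 with 1 CPM or with subtraction, and were 0 to 9 with 1 mouse left out. The 6 called lower became 3 with DESeq2 and with no filter, 1 with filterByExpr, 0 with library totals, 1 CPM or subtraction, and were 0 to 7 with 1 mouse left out. The median log2 fold change of the members was 0.44 with library totals and 0.13 to 0.36 with 1 mouse left out. The ratio of summed CPM (1.01) was 1.07 without the 3 highest members, 1.15 in TPM and with library totals, 0.983 after subtraction, and 0.975 (without mouse 10) to 1.03 with 1 mouse left out. The ratio of receptor-gene density was 2.99 to 3.87 over the alternatives.

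Log2 fold changes that reversed in sign were those of genes not called. With 1 mouse left out in turn they ranged from -0.041 to 0.21 for Ifi27, -0.17 to 0.41 for Ifitm2, -0.092 to 0.27 for Ifitm3, -0.081 to 0.37 for Bst2, -0.036 to 0.13 for Irf1, -0.062 to 0.21 for Oasl2, -0.24 to 0.10 for Eif2ak2, -0.019 to 0.26 for Ddx58, -0.078 to 0.20 for Ifih1, -0.049 to 0.54 for Mx1, -0.19 to 0.20 for Gbp2 and -0.051 to 0.19 for Gbp3. The lowest value came without mouse 10 for Ifi27, Ifitm3, Bst2, Oasl2 and Gbp2. With library totals Eif2ak2 was at 0.16, Gbp7 at 0.034 and Ifnar2 at 0.12. Eif2ak2 was at 0.086 with filterByExpr, 0.011 with no filter, 0.12 with 1 CPM and 0.068 after subtraction, and Ifnar2 at 0.039, 0.079 and 0.056 with filterByExpr, 1 CPM and subtraction. Subtraction gave -0.20 for Ifi44 and -1.53 for Mx1. The causes of these differences were not tested.

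No paired analysis was possible because the ages share no mouse numbers. With 3 mice per age and few counts in 10 members, small changes could not be resolved.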
